A study of Canis lupus familiaris with 30 samples.

Results

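Fibrillar collagens, the type IV collagen of basement membranes and the matrix proteins that bind them are made mostly by fibroblasts, reticular cells, endothelial cells and mural cells rather than by lymphoma cells. In a lymph node, reticular cells wrap collagen fibres into a meshwork along which lymphocytes move, and vessels are sheathed in basement membrane. A fine needle aspirate draws free cells more readily than such anchored ones. The genes described here were COL1A1 and COL1A2 (the chains of type I collagen), COL3A1 (type III collagen), COL4A1 and COL4A2 (type IV collagen), SPARC (a secreted collagen-binding glycoprotein), FN1 (fibronectin) and DCN (decorin). They were chosen by name, and 4 of the 8 could be matched to an Ensembl gene ID in the sources used, out of 32704 gene IDs in the expression matrix. Those sources hold mostly genes with small p-values in these data, so the matching was not independent of the results. The matched genes were COL1A1 (ENSCAFG00000017018), COL3A1 (ENSCAFG00000014812), COL4A2 (ENSCAFG00000006069) and SPARC (ENSCAFG00000017855). COL1A2, COL4A1, FN1 and DCN had no match there, which does not mean that the annotation lacks them, and were not analysed here. The IDs are those of the CanFam3.1 annotation.

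Aspirates of enlarged lymph nodes were taken from 15 pet dogs with lymphoma, each sampled at the 6-week timepoint of CHOP (cyclophosphamide, doxorubicin, vincristine and prednisone) and at the initial timepoint before it, giving 30 RNA-seq libraries. The labels give 3 dogs with T-cell lymphoma, 5 of unknown immunophenotype and 7 with B-cell lymphoma. Dogs could have had a single prednisone injection before the initial sample, and each library is a bulk mixture of tumour and other cells from privately owned animals of no fixed strain. Samples of 14 dogs share a number across timepoints, whereas the pair of dog 031_032 was joined because they were the remaining sample of each timepoint. Values are FPKM (fragments per kilobase of transcript, scaled to library size), which set genes of different length on one scale, and total counts per library ranged from 4318394 to 43413353.

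Several libraries stood apart or went against their labels. Over 9 T-cell markers and 3 B-cell markers, given as mean log2(FPKM+0.1), dog 038, labelled T-cell, had 2.32 and 5.86 before treatment, and dog 029, labelled B-cell, had 5.78 and 4.32. Dog 036, labelled T-cell, had 5.63 and -0.17 before treatment but 4.98 and 4.29 at 6 weeks. The library of dog 036 at 6 weeks was the shallowest, and that of dog 033 at 6 weeks had an FPKM sum of 2253173, the highest of the 30. Each comparison below was therefore repeated without dogs 029 and 038 together and without each dog in turn.

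SPARC was the most abundant of the 4 genes. It was above each of the 3 collagen genes in 15 of 15 libraries at 6 weeks and in 15 of 15 before treatment, with a mean FPKM over all libraries of 7.84 ± 7.48 (SD, n = 30) and a median within-library rank at the 75.8th percentile of all gene IDs. COL3A1 averaged 1.49 ± 2.49 FPKM, COL1A1 1.35 ± 2.50 FPKM and COL4A2 0.707 ± 0.769 FPKM (SD, n = 30 each). The order of the collagens was not fixed, since COL1A1 was above COL3A1 in 6 of 15 6-week libraries and in 7 of 15 initial libraries, and COL3A1 was above COL4A2 in 12 and in 8 of 15. For each collagen gene the SD over libraries exceeded the mean.

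SPARC ranged between 0.890 and 29.13 FPKM with a median of 5.21 at 6 weeks, against 1.33 to 25.11 FPKM with a median of 6.16 before treatment (n = 15 each). Both ranges overlapped almost fully. COL3A1, the fibrillar collagen that reticular fibres are rich in, had a lowest value of 0.0533, a median of 0.532 and a highest of 9.18 FPKM at 6 weeks, against 0.0890, 0.486 and 9.46 FPKM before treatment. COL1A1, the main collagen of connective tissue, had 0, 0.523 and 6.51 FPKM as its lowest, median and highest values at 6 weeks, against 0, 0.452 and 12.35 FPKM before treatment. COL4A2, a chain of the basement membrane network, had 0, 0.445 and 3.29 FPKM at 6 weeks, against 0.126, 0.313 and 2.18 FPKM before treatment. In each gene the highest library lay several-fold above the median at both timepoints.

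**Figure D1:**
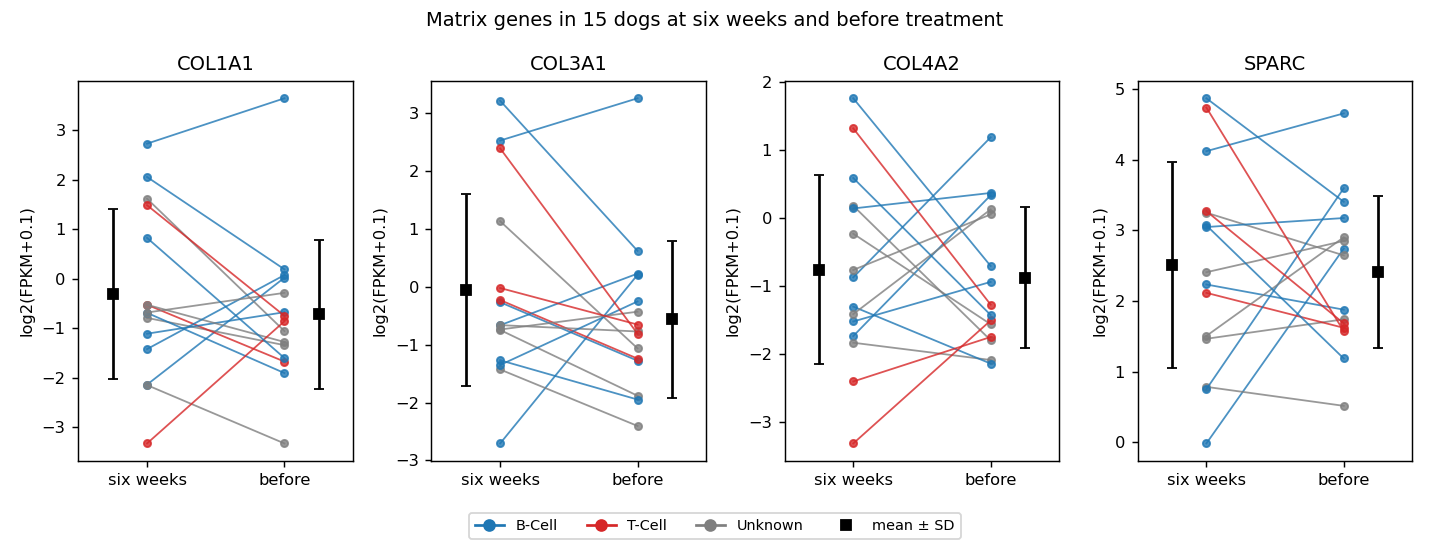
Level of COL1A1, COL3A1, COL4A2 and SPARC in each dog, as log2(FPKM+0.1), at 6 weeks (left) and before treatment (right), with lines joining the libraries of a dog, colours for immunophenotype, and squares with bars for the mean ± SD of 15 dogs. Lines cross in both directions in every panel, and single dogs, such as dog 029 with COL1A1 at 6.51 FPKM at 6 weeks and 12.35 FPKM before treatment, lie far above the rest.

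The first comparison asked whether matrix transcripts changed over 6 weeks of chemotherapy in the same dogs, and none of the 4 genes passed the test. COL3A1 was higher at 6 weeks in 10 of 15 dogs, COL1A1 in 9, SPARC in 8 and COL4A2 in 7. Differences of over 2-fold went both ways, being higher in 7 and lower in 3 dogs for COL1A1 and for COL3A1, 6 and 5 dogs for COL4A2, and 4 and 3 dogs for SPARC. On the log2(FPKM+0.1) scale, which understates changes of low genes, the 6-week minus initial difference was 0.51 for COL3A1 (SE 0.38, 95% interval -0.29 to 1.3, adjusted p = 0.392) and 0.41 for COL1A1 (SE 0.40, interval -0.42 to 1.25, adjusted p = 0.521; limma with dog as block, Benjamini-Hochberg over all genes). COL4A2 differed by 0.11 (interval -0.73 to 0.96, adjusted p = 0.880) and SPARC by 0.10 (interval -0.69 to 0.89, adjusted p = 0.894) in the same limma fit, and without dogs 029 and 038 both had the opposite sign, -0.05 and -0.091, as had COL4A2 after quantile normalization, -0.46. Leaving out dog 034, 037 or 038 alone also turned both signs, as did dog 025 for COL4A2 and dog 036 for SPARC, within -0.0628 to 0.27 and -0.12 to 0.31. Exact sign-flip permutation of the 15 differences gave two-sided p between 0.229 for COL3A1 and 0.821 for SPARC. Increases or decreases within these intervals were thus not distinguishable from no change, given the spread of the within-dog differences.

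The 0 of 4 genes called stood against 9.27% of all genes, 2651 of 28603 tested, of which 2619 were up-regulated and 32 down-regulated. That split came with a median difference of 0.26 over all genes, and relative to this shift the matrix genes differed by 0.25 (COL3A1), 0.15 (COL1A1), -0.14 (COL4A2) and -0.16 (SPARC). The calls lay mostly in low genes, 2404 of 14346 with a mean of 0.1 to 1 FPKM, 203 of 7916 with 1 to 10 FPKM and 44 of 6341 above 10 FPKM. The median difference also depended on level, at 0.60, 0.09 and -0.08 in these sets. COL4A2 falls in the lowest set, and COL1A1, COL3A1 and SPARC in the middle one. The shift of 0.26 is therefore not that of genes at their own level. No gene was called after quantile normalization, or without any one of 7 dogs (025, 026, 030, 031_032, 034, 035 or 038), and 547 were called without dog 037. Leaving out any other dog gave 1832 to 3023 calls, so the size of the background was unstable to the removal of 1 dog. On counts of 9 dogs edgeR called 0 of 16880 genes (4239 at an unadjusted p under 0.05) and DESeq2 called 2808 (16.6%), 2366 up-regulated and 442 down-regulated.

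**Figure D2:**
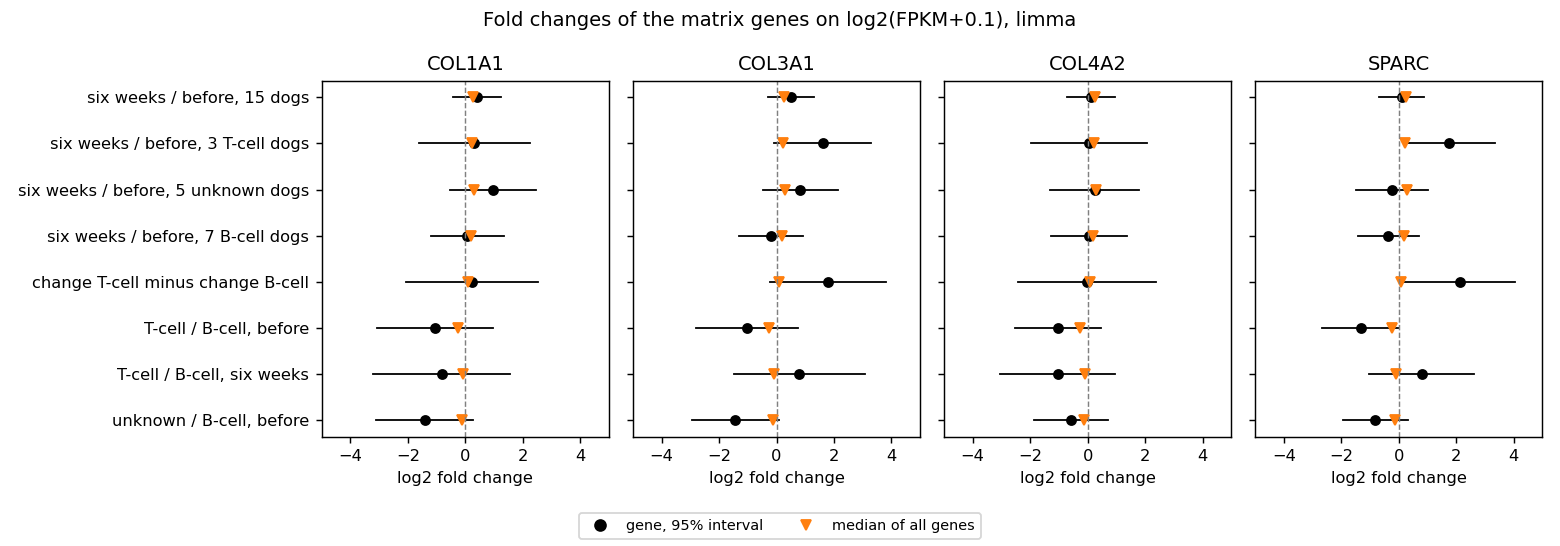
Log2 fold changes of the 4 matrix genes in 8 comparisons (rows), with 95% intervals from limma on log2(FPKM+0.1) and the median of all genes tested as triangles. The intervals include 0 except for SPARC in the change of T-cell dogs (0.14 to 3.36) and in the change of T-cell minus that of B-cell dogs (0.19 to 4.04), neither of which passed after adjustment.

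The immunophenotype comparisons asked whether the matrix genes depended on the type of lymphoma. Before treatment SPARC was at 2.98, 3.11 and 2.88 FPKM in T-cell dogs 028, 036 and 038, against 2.18 to 25.11 FPKM with a median of 8.93 in the 7 B-cell dogs. The T-cell values, 2.99 ± 0.119 FPKM (SD, n = 3), lay close together near the low end of the B-cell range. Only B-cell dog 037 (2.18 FPKM) was below them, and the next lowest B-cell dog, 027, was at 3.58 FPKM. The log2 difference of T-cell minus B-cell dogs was -1.32 (SE 0.63, limma adjusted p = 0.352; exact permutation p = 0.117), the largest in size of the 4 genes in that comparison. COL1A1, COL4A2 and COL3A1 differed by -1.06, -1.04 and -1.02, with limma adjusted p between 0.517 and 0.614. None of the 4 was called, against 0.105% of all genes (30 of 28603), a background that became 2045 genes without dog 038 and 437 without dog 029, and was 1 to 19 without dog 003, 028, 031_032, 033, 034, 036 or 037.

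At 6 weeks SPARC was at 4.24, 9.56 and 26.6 FPKM in T-cell dogs 028, 036 and 038, against 0.890 to 29.1 FPKM with a median of 8.17 in B-cell dogs. COL3A1 was at 0.753, 0.885 and 5.14 FPKM in the T-cell dogs, against 0.0533 to 9.18 FPKM with a median of 0.531 in B-cell dogs. The T-cell values thus spanned much of the B-cell range. The T-cell minus B-cell difference was 0.79 for SPARC and for COL3A1, -0.82 for COL1A1 and -1.05 for COL4A2, with limma adjusted p from 0.880 to 0.913. No gene of 28603 was called (0% of all genes) by limma, with 1843 at an unadjusted p under 0.05. The COL1A1 and COL3A1 differences changed sign without dog 036 (0.44) and without dog 038 (-0.0514).

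SPARC and COL3A1 were higher at 6 weeks in 3 of 3 T-cell dogs. These include dogs 036 and 038, whose B-cell marker levels are given above, and the part of such mixtures was not tested. For SPARC the log2 change in T-cell dogs was 1.75 (SE 0.76, limma adjusted p = 0.168), against -0.37 (SE 0.50) in B-cell dogs, and the test of the difference between the changes gave 2.12 (SE 0.91, unadjusted p = 0.0332, limma adjusted p = 0.342; exact permutation p = 0.10). For COL3A1 the change was 1.62 (SE 0.80) in T-cell dogs, against -0.19 (SE 0.52) in B-cell dogs, and the difference of 1.81 had a limma adjusted p of 0.410. COL1A1 and COL4A2 did not follow that pattern, with differences between the changes of 0.23 and -0.01 whose signs depended on single dogs. Both were at 0 FPKM in dog 036 at 6 weeks, the shallowest library. Its log2 differences of -2.46 and -1.81 therefore rest in part on the added 0.1. In T-cell dogs 028 and 038 the differences were 1.15 and 2.23 for COL1A1, and -0.66 and 2.60 for COL4A2. Without dogs 029 and 038 the difference was 1.38 for SPARC and 0.90 for COL3A1. No matrix gene was called in the difference of changes, against 0.0175% of all genes (5 of 28603), nor in the change of T-cell dogs, against 1.03% (294 of 28603). Without dog 028 these backgrounds became 432 and 4483 genes, and without dog 036 both became 0. Without dog 029 the first was 0 as well, and leaving out any one dog moved the second by more than 1.5 times.

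None of the 4 genes passed the test between dogs of unknown immunophenotype and B-cell dogs before treatment. COL3A1 was at 0.171, 0.379, 0.0890, 0.486 and 0.642 FPKM in dogs 024, 025, 026, 031_032 and 035, against 0.159 to 9.46 FPKM with a median of 1.05 in B-cell dogs. All 5 values lay below the B-cell median but above the lowest B-cell dog, apart from dog 026. The log2 difference, unknown minus B-cell, was -1.43 for COL3A1 (SE 0.71) and -1.42 for COL1A1 (SE 0.80), with a limma adjusted p of 1 for both and exact permutation p of 0.0808 and 0.134. SPARC and COL4A2 differed by -0.82 and -0.58. No gene was called by limma (0% of 28603 genes, 870 at an unadjusted p under 0.05).

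The matrix genes tended to be high and low in the same libraries, a trait that many other genes shared with them (ranks below). Before treatment, COL1A1 and COL3A1 had r = 0.952 and rho = 0.929 over 15 dogs (permutation p = 2e-05 for both, the smallest these permutations can give). Over the 6 pairs of genes, r ranged from 0.60 to 0.95 before treatment, from 0.58 to 0.86 at 6 weeks and from 0.55 to 0.83 in the 6-week minus initial differences. All 18 of these relations had Benjamini-Hochberg adjusted permutation p of at most 0.0358 by Pearson's r, and rho was between 0.46 and 0.93, with COL3A1 and COL4A2 at 6 weeks the weakest (rho = 0.464, adjusted p = 0.0836). Leaving out the 2 dogs farthest from the median left r between 0.45 and 0.86. All genes of a library share its depth and its mixture of cells.

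**Figure D3:**
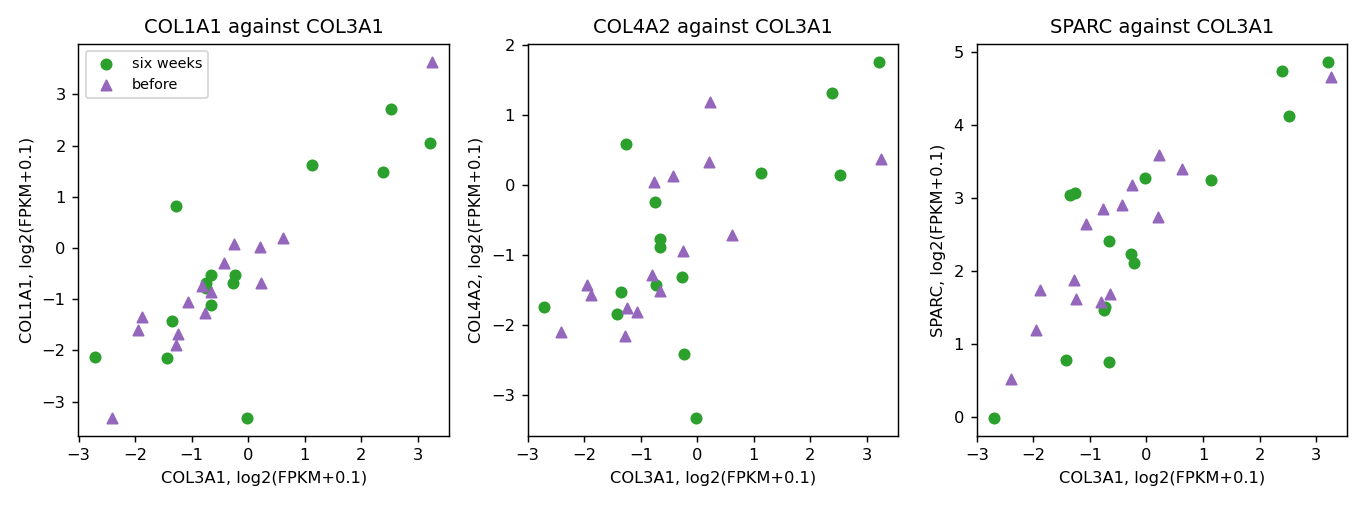
COL1A1, COL4A2 and SPARC (vertical axes) against COL3A1 (horizontal axis), as log2(FPKM+0.1), in 15 6-week libraries (circles) and 15 initial libraries (triangles). The points follow an upward band in each panel, tightest for COL1A1 before treatment (r = 0.952), with the 0 values of dog 036 at 6 weeks lying below it.

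Within a dog the level was less alike. The initial and 6-week values of the same dogs correlated with r = 0.483 for COL1A1, 0.477 for COL3A1, 0.200 for SPARC and 0.087 for COL4A2, with adjusted permutation p of at least 0.206 over the 4 relations (n = 15). Without the 2 dogs farthest from the initial median, r lay between -0.18 and 0.17, so the values near 0.48 rested on those dogs. The SD of the log2 differences within dogs was 1.65 for COL1A1, 1.56 for COL3A1, 1.67 for COL4A2 and 1.63 for SPARC. The SD between dogs was 1.72, 1.66, 1.39 and 1.46 for these genes at 6 weeks, against 1.51, 1.36, 1.04 and 1.08 before treatment.

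Of 4349 gene IDs with a symbol and a mean above 0.5 FPKM, those most like the matrix genes over 30 libraries included other matrix and basement membrane genes. For COL3A1 the nearest were COL6A3, a chain of type VI collagen (r = 0.908, rho = 0.767), NID1, the basement membrane linker nidogen-1 (r = 0.892, rho = 0.757), AHNAK, AEBP1 and LIMCH1 (r of 0.890, 0.882 and 0.874). SPARC was nearest to LAMA4, a laminin chain of vessel walls (r = 0.888, rho = 0.861), SPARCL1, its own paralog (r = 0.866, rho = 0.873), COL3A1, the complement protease gene C1R and RBMS3 (r of 0.856, 0.855 and 0.851). COL4A2 was nearest to SERPINH1, the collagen chaperone HSP47 (r = 0.812, rho = 0.848), TEAD1, NID2, VDR and ABCA3 (r of 0.810, 0.801, 0.797 and 0.787). COL1A1 was nearest to ST6GALNAC2 (r = 0.868, rho = 0.757), COL3A1, LIMCH1, NID1 and VDR (r of 0.851, 0.844, 0.821 and 0.819). The matrix genes were not always near each other. COL4A2 ranked 431 for COL3A1 (r = 0.652), 175 for SPARC and 36 for COL1A1, whereas SPARC and COL1A1 ranked 8 and 10 for COL3A1. For COL4A2, COL1A1 ranked 13, COL3A1 78 and SPARC 80. Many other genes thus followed a matrix gene more closely than some of the matrix genes did. The libraries are 2 per dog, so these are descriptions, and only 5084 of the gene IDs had a symbol in the sources used.

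COL1A1 and COL3A1 were both highest in the same 5 of 30 libraries, picked out after their values were seen, those of dogs 034, 029, 038 and 025 at 6 weeks and dog 029 before treatment. For SPARC 4 of these were the highest 4 and dog 025 ranked 8 of 30, whereas for COL4A2 dog 030 before treatment (2.18 FPKM) ranked 3 and dog 037 at 6 weeks (1.40 FPKM) ranked 4. At 6 weeks COL3A1 was at 9.18, 5.66, 5.14 and 2.09 FPKM in dogs 034, 029, 038 and 025, which were the highest 4 of that timepoint, and dog 029 had 9.46 FPKM before treatment. Markers of other cell types were high in the same libraries. The mean log2(FPKM+0.1) of 8 endothelial markers took ranks 3, 4, 1 and 2 of the 15 6-week libraries in these dogs (2.21, 2.04, 2.70 and 2.43), and rank 1 before treatment in dog 029 (2.12). The mean of 3 fibroblast and reticular cell markers took ranks 1, 2, 3 and 4 (3.40, 2.85, 1.88 and 1.23), and rank 1 in dog 029 before treatment (2.97). That of 4 mural cell markers lined up less closely, at ranks 2, 6, 1 and 3, and rank 2 in dog 029 before treatment.

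Immune markers moved with them too. The 8 macrophage markers took ranks 3, 4, 1 and 2 in dogs 034, 029, 038 and 025 at 6 weeks and rank 2 in dog 029 before treatment, and their summed level reached 358 FPKM in dog 038, against a median of 37.96 FPKM over the 15 6-week libraries. The 9 T-cell markers took ranks 3, 1, 6 and 2, and rank 1 in dog 029 before treatment. The 7 proliferation genes took ranks 14, 15, 12 and 13, and rank 15 in dog 029 before treatment. The 3 B-cell markers ranked 13, 14, 8 and 12 at 6 weeks and 13 in dog 029 before treatment, so no single ordering held for all lists. At the other end, dog 003 at 6 weeks had 0.0533 FPKM of COL3A1 and ranked 15 of 15 for endothelial, fibroblast and reticular, and macrophage markers, with 2 of 8 endothelial markers at 0. The part of these cell types in the matrix levels was not tested, and in bulk samples fewer cells of a type and less RNA per cell cannot be told apart.

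**Figure D4:**
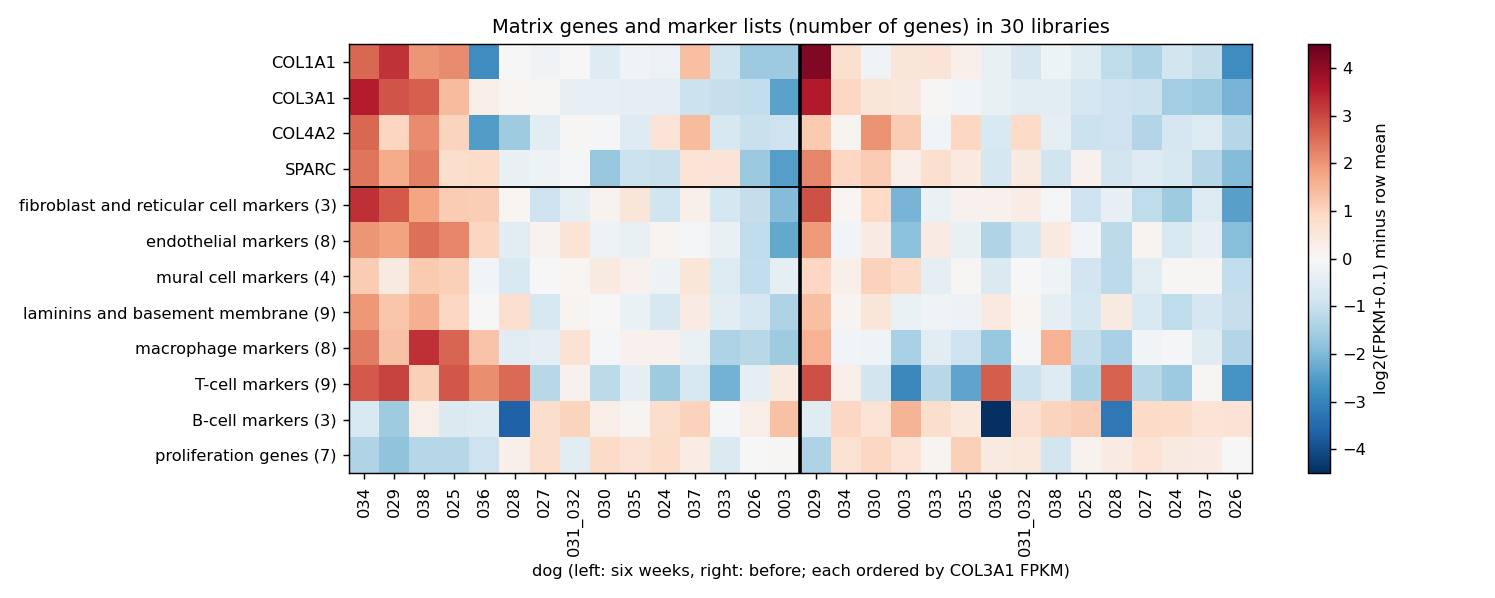
Levels of the 4 matrix genes (top) and mean levels of 8 gene lists (bottom) in 30 libraries, as log2(FPKM+0.1) minus the row's mean over all libraries, red above and blue below. 6-week libraries are left and initial libraries right, each ordered by COL3A1 FPKM, and the leftmost columns of each side (dogs 034, 029, 038 and 025 at 6 weeks, dog 029 before treatment) are red for matrix, fibroblast, endothelial and macrophage genes and blue for proliferation genes.

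Depth went along with one gene. At 6 weeks the COL3A1 level was lower in deeper libraries by rank (rho = -0.714, permutation p = 0.00388, adjusted p = 0.0310 over 8 relations) but not by Pearson's r (-0.451, adjusted p = 0.391; r = -0.548 without the 2 dogs farthest from the median depth). The other 7 relations of a matrix gene with depth at either timepoint had adjusted p of at least 0.225. The 4 highest 6-week libraries held 6609226 to 11646028 counts, and its part in their levels was not tested.

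Other genes of the matrix were followed through 7 lists, in which 5 of 49 genes tested (10.2%) were called at 6 weeks, near the 9.27% of all genes. Only 52 of the 160 listed genes had an ID, from tables made mostly of genes with small p-values in these data, so list counts and medians cannot be set against all genes as a result. Of 8 other collagens tested at 6 weeks, 2 were up-regulated and 0 down-regulated, with a median of 0.58. COL6A5, a type VI collagen chain, averaged 2.11 ± 2.76 FPKM at 6 weeks and 0.753 ± 1.06 FPKM before treatment (SD, n = 15 each), a log2 difference of 1.16 (SE 0.25, limma adjusted p = 0.0325), higher in 14 of 15 dogs. COL14A1, a fibril-associated collagen, differed by 0.82 (adjusted p = 0.0424, higher in 13 dogs). TLL1, a protease that trims procollagen, was the 1 of 7 folding and processing genes called, at 0.88 (adjusted p = 0.0358, higher in 14 dogs). Of 11 matrix glycoproteins 2 were up-regulated, the calcium-binding SMOC1 by 0.89 and the thrombospondin THBS4 by 0.69, with limma adjusted p of 0.0467 and 0.0484 and a list median of 0.66. EFEMP1, a fibulin, was up-regulated by 3.11 in the change of T-cell dogs (limma adjusted p = 0.0461), a call that was lost under all 6 other settings run for that comparison (limma adjusted p of 0.0543 to 0.412) and held without only 3 of 15 dogs (024, 025 or 028).

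The other matrix lists had no call at 6 weeks, at 9 laminins and basement membrane genes (median 0.46), 10 matrix receptors (0.53), 3 proteases and inhibitors (0.60) and the 1 proteoglycan gene, OGN (-0.37). LAMC1 and LAMA4, the most abundant laminin chains listed, differed by 0.18 and 0.46, the integrin chain ITGB1 by 0.07 and the syndecan SDC1 by 0.36. The collagenase MMP8 differed by 1.03 and ADAMTS1 by 0.60, and limma adjusted p of these 6 genes lay between 0.1004 and 0.892.

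In the 12 marker and proliferation lists, which are partial in the same way, 6 of 51 genes tested (11.8%) were called, again near the 9.27% of all genes. At 6 weeks 1 of 8 endothelial markers was up-regulated, KDR (VEGF receptor 2), by 1.22, and 2 of 8 macrophage markers, MRC1 (mannose receptor) by 1.42 and ADGRE1 by 1.002. One of 9 T-cell markers was up-regulated, the granzyme gene GZMK by 1.33, and so was the platelet chemokine PPBP by 0.94. CENPF, a kinetochore protein, was down-regulated by -0.67, the 1 of 7 proliferation genes called (limma adjusted p of these 6 genes from 0.0421 to 0.04998). None was called of 3 fibroblast and reticular cell markers (CCL19 at 1.23, NT5E at 0.31), 4 mural cell markers (MYH11 at 0.06, TAGLN at 0.27), 3 B-cell markers (CD22 at -0.23, POU2AF1 at -0.05), 4 plasma cell markers (XBP1 at 0.29, IRF4 at 0.60), 2 neutrophil markers (S100A8 at 0.94, CSF3R at 0.80), and the adipocyte and erythroid genes CIDEC (0.35) and AHSP (0.80). All 11 of the listed genes called at 6 weeks lost the call, or fell below the filter, under 8 alternatives, including quantile normalization. They also lost it without any one of 7 dogs, and 1 of these removals is also among the 8 alternatives. DESeq2 on counts of 9 dogs did call 10 of the 11, all but THBS4. With pseudocount 1, 4 were called, and with no filter on low values 5 were. All 11 kept their sign under DESeq2, and 10 did after quantile normalization.

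The reads behind these values were few. In the 18 libraries of 9 dogs whose counts and FPKM agreed under the same gene ID, COL1A1 had 0 to 217 counts with a median of 44, COL3A1 8 to 652 with 46.5, COL4A2 0 to 227 with 43.5 and SPARC 27 to 422 with 134. COL1A1 had no count in dog 036 at 6 weeks, which allows up to 0.140 FPKM at 3 counts, nor in dog 026 before treatment, which allows up to 0.0402 FPKM. COL4A2 had none in dog 036 at 6 weeks, which allows up to 0.108 FPKM. Such limits cover counting error alone, as reads carry no molecular identifiers.

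In the other 6 dogs (024, 027, 028, 029, 030 and 035) the count table did not follow FPKM. The counts under COL3A1 were 1 to 11 in these 12 libraries although its FPKM reached 9.46, and those under COL4A2 were 868 to 5404 although its FPKM was at most 2.18. Over all genes, counts and FPKM under the same ID had a Spearman rho of 0.087 to 0.117 in these libraries, against 0.880 to 0.983 in the other 18, so counts there stand under other gene IDs and the levels above rest on FPKM. For each of the 4 genes, one count row under another ID did follow its FPKM over the 12 libraries, a search made after the values were seen, and that row held 13 to 614 counts for COL1A1, 22 to 623 for COL3A1, 9 to 234 for COL4A2 and 15 to 338 for SPARC.

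**Figure D5:**
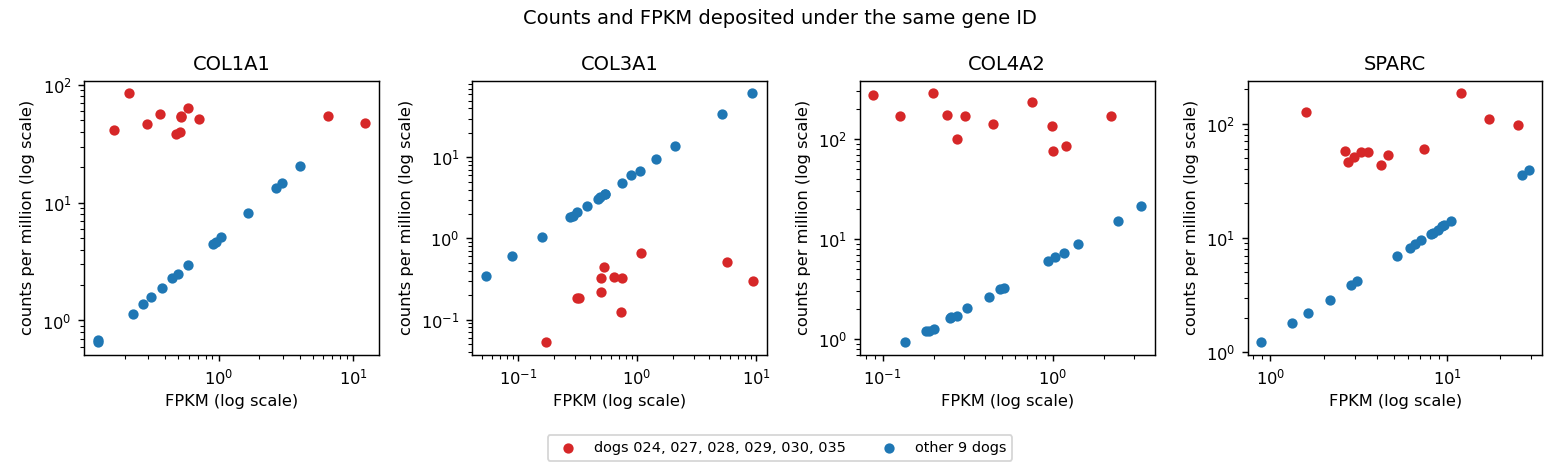
Counts scaled to the library total (CPM) against FPKM, both on log scales, for each matrix gene in 18 libraries of 9 dogs (blue) and 12 libraries of 6 dogs (red), libraries at 0 left out. Blue points lie on one line per gene, at 1.32 to 1.37 CPM per FPKM for SPARC, and red points do not, at 3.897 to 79.5.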

How the data were processed

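The authors aligned single 75 bp reads to CanFam3.1 with HISAT2 2.1.0, assembled against the Ensembl release 104 annotation with StringTie 1.3.3, and deposited 1 matrix of FPKM and 1 of gene counts made with StringTie's own script. Deposited FPKM values, log2-transformed after adding 0.1, were tested for the 28603 genes whose mean exceeded 0.1 FPKM, with limma 3.58.1 (trend, R 4.3.3), dog as block for time, and Benjamini-Hochberg adjustment over all genes at 0.05. The block follows from pairs taken from the same animal. Deposited counts were tested with edgeR 4.0.16 and DESeq2 1.42.0 in 9 dogs (genes with a mean count of at least 10), since they stand under other gene IDs in 6 dogs. Groups came from the GEO labels. Symbols of 5084 gene IDs, mostly of genes with small p-values, came from the ID columns of 4 supplementary tables, so lists are partial. The genes and lists were chosen with earlier results of these data known. Named genes were the 4 matrix genes, of each list the called genes (at most 4 by size, or else the 2 most abundant), and the 5 most alike per matrix gene. Code was tested on simulated data. Permutation tests were exact, or used 100000 resamples for correlations (SciPy 1.17.1). Within a timepoint separate samples are separate dogs, and each dog gave 1 library per timepoint. Alternatives were pseudocount 1, a filter above 1 FPKM or none, quantile normalization, no block, and leaving out dogs.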

Additional observations from a re-analysis of the deposited data

Results flagged for a closer look

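The sets examined were 16 of FPKM levels (4 genes, 2 timepoints, B-cell and unknown dogs) and 8 of within-dog log2 differences. Of these 24 sets, 6, all of levels, had a library far from the others. The rule's nominal rate of about 1 in 20 cannot be set against this number. FPKM levels were skewed, the 4 genes varied together, and the 6 flags came from 3 libraries. Dog 029 before treatment was far above the other B-cell dogs in COL1A1 (12.35 FPKM, next 1.04), COL3A1 (9.457 FPKM, next 1.438) and SPARC (25.11 FPKM, next 12). Dog 034 at 6 weeks was far above the other B-cell dogs in COL4A2 (3.295 FPKM, next 1.404). Dog 025 at 6 weeks was far above the other dogs of unknown immunophenotype in COL1A1 (2.958 FPKM, next 0.594) and COL3A1 (2.093 FPKM, next 0.532). These 3 libraries are among the 5 with the highest COL1A1 and COL3A1, in which fibroblast, endothelial and macrophage markers also ranked high. The part of those cells was not tested.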

How the results depend on the processing

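No matrix gene passed in any of 672 fits under alternatives, the smallest adjusted p being 0.0905. COL4A2, with a mean below 1 FPKM, has no value under the filter above 1 FPKM. For 6 weeks against before treatment, the 2651 genes called by limma became 0 with a filter above 1 FPKM, with quantile normalization, without the replicate block, without dogs 029 and 038, without the pair of dog 031_032, in the 9 dogs of the count test with limma, and in edgeR with TMM or DESeq2 size factors. Leaving out 1 dog gave 0 to 3023. T-cell against B-cell before treatment gave 30 genes, 19 with pseudocount 1, 56 with the filter above 1 FPKM, 18 with no filter, 2966 without dogs 029 and 038, and 1 to 2045 without 1 dog; at 6 weeks it gave 0, with 18 without dogs 029 and 038, and 0 to 13 without 1 dog. Unknown against B-cell gave 0, with 1 after quantile normalization and 1 without dogs 029 and 038, and 0 to 1 without 1 dog. The difference of changes gave 5 genes, 0 with pseudocount 1, 3 with quantile normalization, 0 without the replicate block, and 0 to 432 without 1 dog. Signs of log2 differences reversed as follows, and the cause was not tested. With quantile normalization COL4A2 became -0.46 over all dogs, -0.34 in B-cell, -0.44 in T-cell and -0.65 in unknown dogs, and COL1A1 became -0.12 in B-cell and -0.022 in T-cell dogs. Without dogs 029 and 038, COL4A2 became -0.05 and SPARC -0.091 over all dogs, COL1A1 -0.66 and COL4A2 -1.23 in T-cell dogs, and COL1A1 -0.89 in the difference of changes. With pseudocount 1, COL4A2 became 0.26 in the difference of changes and COL3A1 0.0236 in B-cell dogs. Leaving out 1 dog moved the 6-week difference within 0.25 to 0.62 for COL1A1, 0.31 to 0.75 for COL3A1, -0.0628 to 0.27 for COL4A2 and -0.12 to 0.31 for SPARC. It reversed signs within -1.96 to 0.44 (COL1A1) and -0.0514 to 1.34 (COL3A1) for T-cell against B-cell at 6 weeks, -0.73 to 1.62 (COL1A1) and -1.29 to 0.92 (COL4A2) in the difference of changes, -0.32 to 0.44, -0.66 to 0.26, -0.35 to 0.41 and -0.74 to 0.0475 (COL1A1, COL3A1, COL4A2 and SPARC) in B-cell dogs, -0.66 to 1.69 (COL1A1) and -1.23 to 0.97 (COL4A2) in T-cell dogs, and -0.19 to 0.69 (COL4A2) and -0.46 to 0.0388 (SPARC) in unknown dogs.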
